A study of Mus musculus with 75 samples.

Results

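The genes described here mark lipid-associated macrophages, a state of macrophages found in obese fat. They are Trem2, Itgax, Cd9, Gpnmb, Cd68, Atp6v0d2, Mmp12, Lgals3, Spp1 and Aif1. They were chosen by name from a probe table that gave 19147 genes, at a time when earlier results of these data were known. Of the 10 genes, 8 had a probe set with their symbol. Cd68 and Spp1 were not listed in that table and are not analysed here. Where a gene had several probe sets, the one with the highest mean in the tissue was used.

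The study measured RNA in 36 epididymal fat samples and 39 liver samples of male mice on C57BL/6 background, 1 array each. All groups were started on their diet at 2 months of age and kept on it for 14 weeks, and the mice were either CB1-/- (called knockout here), which lack the cannabinoid receptor CB1, or control littermates (wild type). The high-fat diet gave 59.4% of its energy as fat and the chow 13%. AM251, an inverse agonist of CB1, was given by oral gavage at 10 mg per kg on each of 2 days, and the other mice received methylcellulose vehicle; tissue was taken on day 3. In fat, high-fat groups held 5 knockout AM251, 3 knockout vehicle, 5 wild-type AM251 and 5 wild-type vehicle arrays, and chow groups held 3 knockout AM251, 5 knockout vehicle, 5 wild-type AM251 and 5 wild-type vehicle arrays. In liver, high-fat knockout vehicle held 4 arrays and every other group 5. The knockout mice had been back-crossed to C57BL/6J and then re-derived on C57BL/6N, and they lack the receptor in every tissue, so a difference by genotype is not one of fat alone.

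Macrophages of this kind gather around dying adipocytes in obese fat, take up the released lipid and break it down in lysosomes. TREM2 is a surface receptor that binds lipids and signals through the adaptor TYROBP, and it is needed for much of this gene programme in mice. CB1 is a receptor for endocannabinoids, signals through inhibitory G proteins, and is known for its role in feeding and in fat storage.

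The members fall into 4 roles. Trem2, Itgax (integrin alpha X, CD11c), Cd9 (a tetraspanin) and Gpnmb (a transmembrane glycoprotein) act at the cell surface or on internal membranes. Atp6v0d2 is a subunit of the proton pump that acidifies lysosomes. Mmp12, a macrophage elastase, and Lgals3, galectin-3, are secreted proteins that act on matrix and on sugar chains. Aif1, also called Iba1, is a calcium-binding protein of the macrophage cytoskeleton.

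The sequences around the starts of some of these genes are shown because the members moved together in fat. Only windows that hold a searched motif are printed. RefSeq promoter windows on GRCm38.p6, which run from 250 bases before to 50 after a start, were found for 7 of the 8 measured genes, with 2 windows for Mmp12 and none for Atp6v0d2. Capitals mark the motif searched for, read on either strand: TGAGTCA, the site of AP-1 factors, in the first 3 windows, and GAGGAAG, read by the macrophage factor PU.1, in the last.
Gpnmb, chr6:49036268-49036567, plus strand: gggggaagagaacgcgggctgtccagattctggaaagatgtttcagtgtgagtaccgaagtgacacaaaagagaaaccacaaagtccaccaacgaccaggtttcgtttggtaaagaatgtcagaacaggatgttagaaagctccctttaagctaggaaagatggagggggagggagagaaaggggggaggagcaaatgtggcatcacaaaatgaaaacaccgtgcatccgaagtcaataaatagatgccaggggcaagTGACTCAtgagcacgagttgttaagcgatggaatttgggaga
Itgax, chr7:128129300-128129599, plus strand: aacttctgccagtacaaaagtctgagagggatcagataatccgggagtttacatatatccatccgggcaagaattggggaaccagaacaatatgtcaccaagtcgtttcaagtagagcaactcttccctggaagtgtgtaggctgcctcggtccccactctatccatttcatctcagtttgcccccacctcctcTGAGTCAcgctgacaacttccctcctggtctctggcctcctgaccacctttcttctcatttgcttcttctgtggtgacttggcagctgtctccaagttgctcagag
Mmp12, chr9:7347124-7347423, plus strand: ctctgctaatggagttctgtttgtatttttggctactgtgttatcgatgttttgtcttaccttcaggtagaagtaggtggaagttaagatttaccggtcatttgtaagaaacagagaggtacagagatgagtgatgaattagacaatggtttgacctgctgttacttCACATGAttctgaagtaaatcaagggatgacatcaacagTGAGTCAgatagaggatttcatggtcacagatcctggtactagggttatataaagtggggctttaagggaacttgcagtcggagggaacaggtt
Trem2, chr17:48346151-48346450, plus strand: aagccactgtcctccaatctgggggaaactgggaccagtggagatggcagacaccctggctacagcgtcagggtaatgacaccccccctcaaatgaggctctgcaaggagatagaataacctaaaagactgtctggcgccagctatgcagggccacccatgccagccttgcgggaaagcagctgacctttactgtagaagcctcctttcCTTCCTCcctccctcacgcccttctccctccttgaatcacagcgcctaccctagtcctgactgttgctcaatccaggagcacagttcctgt
The AP-1 letters lay 8 bases after the Gpnmb start on the opposite strand, 56 bases before the Itgax start and 44 before this Mmp12 start. They occur in 5.2% of all 32851 promoter windows. GAGGAAG lay 41 bases before the Trem2 start and, in the other Mmp12 window, 87 before the start, both on the opposite strand, and it occurs in 13.6% of windows. Of the forms read by MITF and TFEB, TCACGTG was in 0 member windows and TCATGTG in 1, the printed Mmp12 window, where it also stands in capitals, 83 bases before the start on the opposite strand. Each form occurs in 3.77% of windows, and none of the searched motifs overlaps another in the printed windows. These matches describe letters only. The windows of Cd9, Lgals3 and Aif1 held none of the searched motifs and are not printed.

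Levels are given as log2 of the deposited intensity, with each group's mean ± SD over its arrays. Differences are in log2 with their standard error. The threshold is a Benjamini-Hochberg adjusted p of 0.05 over all 19147 genes in limma, a linear model that borrows information on spread between genes. Each group's arrays are separate samples in the labels. Standard errors, intervals and p-values rest on a spread per gene that all 8 groups of the tissue share, not on the compared groups alone. The groups spread unequally: the SD of Atp6v0d2 was 0.08 in high-fat knockout vehicle fat and 1.12 in high-fat wild-type vehicle fat. Fits with only the compared groups are given at the end. Adipoq, the adipocyte hormone, averaged 13.71 to 14.00 over the fat groups and 2.83 to 3.38 over the liver groups, while Alb, liver albumin, averaged 4.80 to 7.09 over the fat groups and 14.79 to 14.88 over the liver groups. Cnr1, which encodes CB1, was called lower in knockout fat in none of the 4 pairs of groups. The difference was 0.20 ± 0.37 on high-fat diet and -0.33 ± 0.32 on chow under vehicle, and 0.91 ± 0.32 on high-fat diet (limma, adjusted p = 0.0498, higher in knockout) and 0.98 ± 0.37 on chow under AM251. Where its probe set lies relative to the deleted part is not known here, so its level does not check the genotype labels. 1 fat array, number 45 of the high-fat knockout AM251 group, stood apart from the other arrays of its group in most members, and comparisons that include its group are given with and without it.

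In wild-type fat under vehicle, all 8 measured genes rose on high-fat diet, and in none of the 8 did the high-fat arrays overlap the chow arrays. Among all genes tested, 12.1% rose and 8.02% were higher without overlap. The median difference of the 8 was 3.13, against 0.02 over all genes. Atp6v0d2 rose most, 27.3-fold, and Aif1 least, 1.95-fold.

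The surface genes separated the diets clearly. Trem2 measured 12.13, 9.30, 10.30, 11.59 and 10.87 in high-fat wild-type vehicle fat, against 7.22, 8.09, 7.83, 6.86 and 6.70 in chow wild-type vehicle fat. Every high-fat array was above every chow array, and the difference was 3.50 ± 0.47, or 11.3-fold (limma, adjusted p = 2.5e-06). Itgax measured 11.65, 9.40, 10.23, 11.27 and 10.57 in the high-fat arrays and 7.36, 7.82, 7.80, 7.27 and 7.02 in the chow arrays. That was a 9.01-fold difference (3.17 ± 0.40, limma adjusted p = 1.52e-06). Cd9, which most cell types express to some degree, measured 12.12, 10.64, 11.16, 11.59 and 11.05 on high-fat diet and 10.00, 9.81, 9.84, 9.07 and 9.82 on chow. Its 3.05-fold rise (1.61 ± 0.25, limma adjusted p = 1.36e-05) was smaller, again with no overlap. Gpnmb by its brightest probe set measured 10.25, 8.96, 9.01, 9.78 and 9.11 on high-fat diet, against 8.35, 8.23, 8.36, 8.15 and 8.09 on chow, a 2.27-fold rise (limma adjusted p = 3.01e-05).

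Atp6v0d2, the lysosomal pump subunit, measured 10.87, 7.87, 9.28, 10.18 and 9.64 in high-fat wild-type vehicle fat and 4.81, 5.06, 5.15, 4.70 and 4.27 in chow wild-type vehicle fat. The lowest high-fat array was still far above the highest chow array, and the difference was 4.77 ± 0.55 (limma, adjusted p = 5.49e-07).

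Of the secreted proteins, Mmp12 measured 13.09, 11.07, 11.70, 12.52 and 11.86 on high-fat diet and 7.97, 8.32, 8.94, 7.23 and 6.97 on chow, a 17.9-fold difference (4.16 ± 0.52, limma adjusted p = 1.24e-06). Lgals3 measured 10.18, 7.56, 8.33, 9.67 and 9.39 on high-fat diet and 6.02, 6.50, 6.28, 5.61 and 5.28 on chow, an 8.5-fold difference (3.09 ± 0.44, limma adjusted p = 5.85e-06). Neither gene had an overlap between the diets. Aif1 measured 8.33, 7.90, 8.16, 8.40 and 7.72 on high-fat diet and 6.97, 7.55, 7.31, 6.88 and 6.97 on chow, a difference of 0.97 ± 0.17 (limma, adjusted p = 5.15e-05). It was the member with the narrowest gap between the groups.

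**Figure D1:**
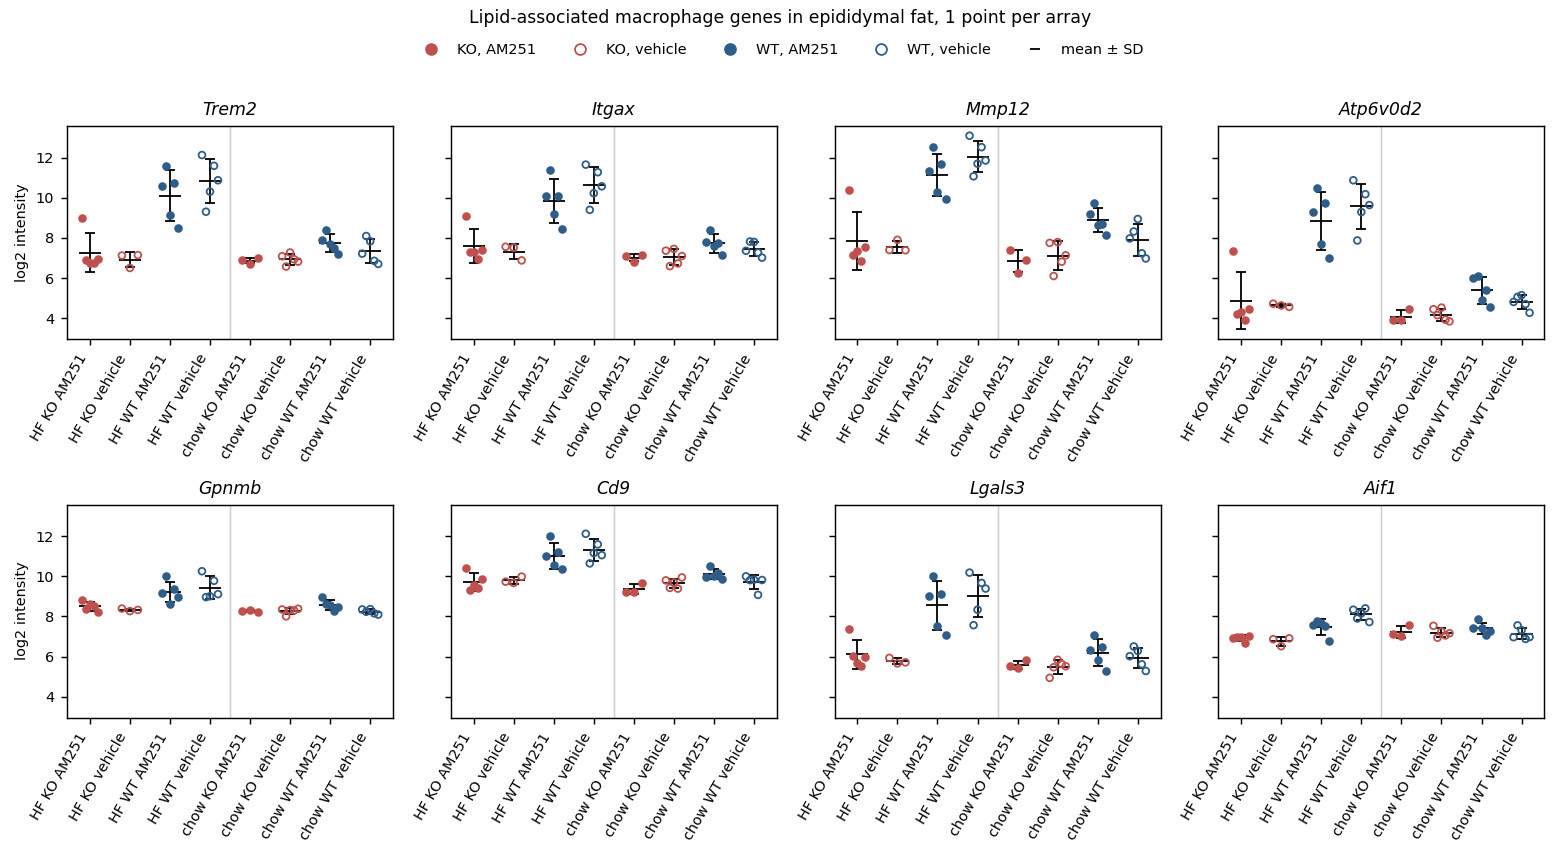
Log2 intensity of the 8 measured genes in epididymal fat, 1 panel per gene, 1 point per array, with bars for the mean ± SD of each of the 8 groups named on the x axis. The high-fat wild-type groups lie highest in all 8 panels, and 1 high-fat knockout AM251 array lies far above the other 4 for Trem2, Itgax, Mmp12, Atp6v0d2 and Lgals3.

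The high-fat wild-type vehicle arrays differed more among themselves than the other vehicle groups for most members. Trem2 spanned 9.30 to 12.13 there, with an SD of 1.10, against SDs of 0.36 in high-fat knockout vehicle fat and 0.61 in chow wild-type vehicle fat. The same array was highest of the 5 for Trem2, Itgax, Mmp12, Atp6v0d2, Gpnmb, Cd9 and Lgals3, and 1 other array was lowest for all of these. Over all 36 fat arrays, with each group's mean taken off, each member followed the mean of the other members with r of 0.968 for Trem2, 0.962 for Itgax, 0.930 for Atp6v0d2, 0.900 for Lgals3, 0.886 for Mmp12, 0.875 for Cd9, 0.744 for Gpnmb and 0.567 for Aif1. Without array 45, over 35 arrays, these r ran from 0.641 for Aif1 to 0.962 for Trem2. They are descriptions over arrays that each come from 1 piece of tissue.

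The genes with several probe sets moved the same way in each of them. The 5 Gpnmb probe sets were higher on high-fat diet in wild-type vehicle fat by 1.18, 4.56, 1.26, 3.20 and 3.52, and all 5 passed the threshold when each probe set was tested on its own. The brightest probe set, which stands for Gpnmb here, showed the smallest of the 5 differences, and it read 8.05 to 8.28 in every liver group, where the second read 3.37 to 3.74 in the vehicle groups. The second probe set averaged 11.74 ± 1.14 in high-fat wild-type vehicle fat and 7.18 ± 0.75 in chow wild-type vehicle fat (SD, n = 5 each). The 2 Atp6v0d2 probe sets gave 4.72 and 4.77. The dimmer Mmp12 probe set gave 0.89, against 4.16 by the brighter one.

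**Figure D2:**
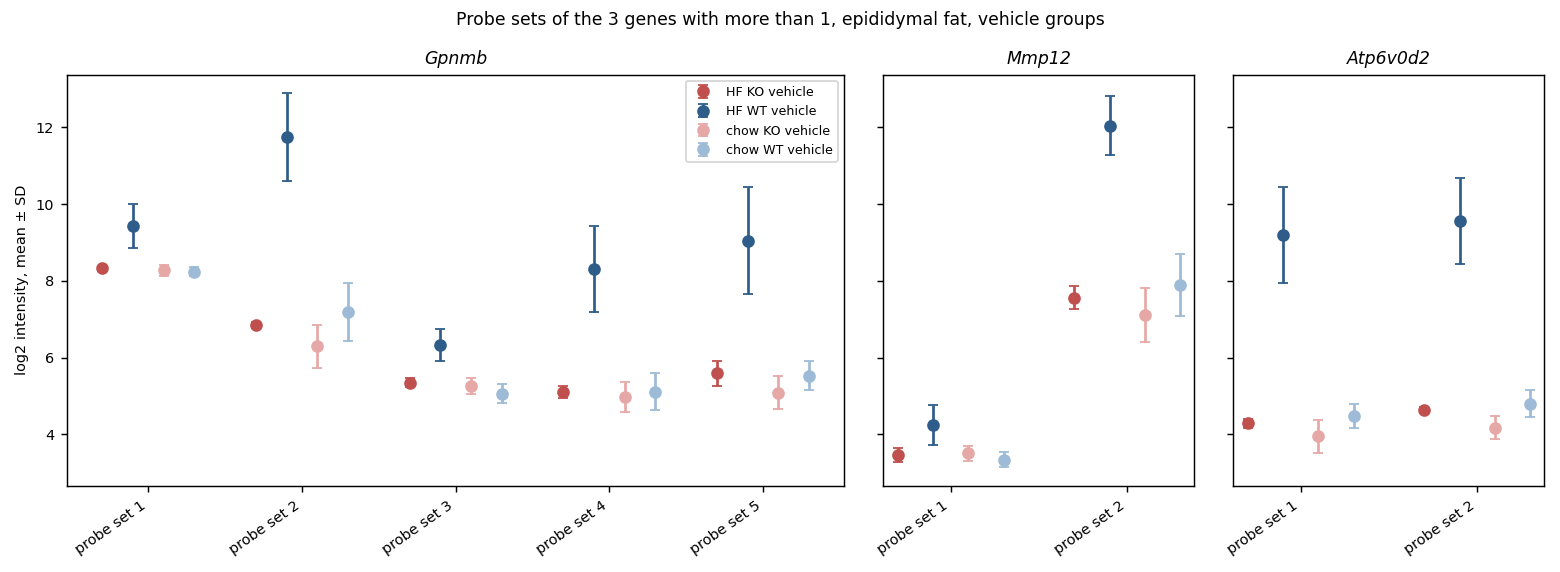
Mean log2 intensity ± SD of each probe set of Gpnmb (5), Mmp12 (2) and Atp6v0d2 (2) in the 4 vehicle groups of epididymal fat. High-fat wild-type fat is highest for each probe set, and the second Gpnmb probe set separates the diets by 4.56 where the first separates them by 1.18.

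Most genes on 4 lists of partners of these members also rose, beside 12.1% of all genes. Of 7 measured genes of TREM2 signalling, 7 rose in wild-type vehicle fat on high-fat diet (median 1.34), among them Tyrobp, the TREM2 adaptor (1.97), Clec7a, the beta-glucan receptor dectin-1 (1.83), Ms4a7 (1.66) and Hcst, a related adaptor (0.76). Of 13 genes of lipid handling, 9 rose and 0 fell (median 0.93), among them Nceh1, a cholesterol ester hydrolase (2.52 ± 0.35), Lipa, lysosomal acid lipase (1.78 ± 0.25), the cholesterol exporter Abcg1 (1.42 ± 0.16) and Npc2, a lysosomal cholesterol carrier (0.93 ± 0.14). Of 17 lysosome and phagosome genes, 12 rose and 1 fell (median 0.83), led by the cathepsins Ctsk (2.62), Ctsz (1.66) and Ctsl (1.54) and the protease Lgmn (1.69). Of 12 further genes of this macrophage state, 10 rose and 0 fell (median 0.87), among them Hmox1, heme oxygenase-1 (3.56), Slc37a2, a sugar-phosphate transporter (2.63), Capg, an actin-capping protein (2.07), and Dcstamp, a cell fusion protein (1.92). The members' median of 3.13 and these medians stand beside 0.02 over all genes.

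Lists of general and of resident macrophage genes had smaller medians than the members. Of 16 general macrophage genes, 13 rose and 1 fell on high-fat diet (median 0.92), among them Mpeg1, perforin-2 (2.69), Ptprc, CD45 (1.56), the transcription factor Spi1, PU.1 (1.54), and the complement gene C1qa (0.91). Of 10 genes of resident macrophages and Kupffer cells, 5 rose and 1 fell (median 0.53): the mannose receptor Mrc1 rose by 0.80 and Marco by 0.84, and Lyve1 fell by 0.95. Of 6 proliferation genes 5 rose (median 0.96), Cdk1 by 1.41 and Rrm2 by 1.37. In whole tissue, more cells of a type and more RNA per cell cannot be told apart.

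Markers of other cells also moved with this comparison. The summed intensity of the 16 general macrophage genes ran from 24931 to 53456 in high-fat wild-type vehicle fat and from 14156 to 19615 in chow wild-type vehicle fat. The 9 neutrophil genes summed to 581 to 1327 in the high-fat arrays and 372 to 1151 in the chow arrays, and 2 of the 9 rose, S100a8 by 2.03. The 6 mesothelial genes, of the lining of the abdominal cavity, summed to 2274 to 3987 in the high-fat arrays and 3914 to 5472 in the chow arrays, and 4 of the 6 fell. The 8 genes of the hepatocyte list summed to 3940 to 7653 in the high-fat arrays and 13127 to 15626 in the chow arrays, with Cyp2e1 at -1.45 and Alb at -2.13. Alb read low in fat, as given above, so these sums rest mainly on other genes of that list. They do not show hepatocytes in fat, and which cells gave these readings was not tested. The 8 adipocyte genes summed to 60366 to 76785 in the high-fat arrays and 70509 to 76447 in the chow arrays. The part of these cells in the members' rise was not tested.

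In knockout vehicle fat no member was called between the diets. The adjusted p in limma ran from 0.652 to 0.999 over the 8 genes, and the median difference was 0.21. Before adjustment 1 of the 8 passed, Aif1, in the downward direction (-0.42 ± 0.19). Across all genes only 0.00522% passed in either direction, so the members' count says little by itself. The groups held 3 and 5 arrays. Trem2 measured 7.12, 6.50 and 7.14 in high-fat knockout vehicle fat and 7.08, 6.57, 7.27, 6.93 and 6.82 in chow knockout vehicle fat. The diets overlapped, and the difference of -0.02 had a 95% interval from -1.13 to 1.10, which does not reach the wild-type difference of 3.50. Atp6v0d2 measured 4.72, 4.63 and 4.56 on high-fat diet and 4.44, 4.15, 4.52, 3.92 and 3.84 on chow, a difference of 0.46 with an interval from -0.84 to 1.76. Mmp12 measured 7.40, 7.90 and 7.38 on high-fat diet and 7.75, 6.10, 7.79, 6.81 and 7.13 on chow, a difference of 0.44 with an interval from -0.79 to 1.67. These intervals rest on the spread shared by all 8 fat groups. Of the 8 genes 2 had no overlap between the diets, Atp6v0d2, higher on high-fat diet, and Aif1, lower, each by a narrow gap. Among all genes 2.12% were higher and 3.09% lower without overlap.

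The difference between the genotypes in their response to diet was tested directly. Under vehicle all 8 genes had a smaller diet effect in knockout than in wild-type fat (median -2.85), and 3.46% of all genes were called in that direction. The difference of effects was -4.31 ± 0.84 for Atp6v0d2 (limma, adjusted p = 0.00348), -3.71 ± 0.79 for Mmp12 (adjusted p = 0.00615) and -3.51 ± 0.72 for Trem2 (adjusted p = 0.00453). It was -2.90 ± 0.62 for Itgax, -2.80 ± 0.68 for Lgals3, -1.46 ± 0.38 for Cd9, -1.39 ± 0.25 for Aif1 and -1.13 ± 0.30 for Gpnmb (limma, highest adjusted p = 0.0194). Of the partner genes, 6 of 7 of TREM2 signalling, 7 of 17 of lysosome and phagosome, 5 of 13 of lipid handling and 4 of 12 of the further set had a smaller effect in knockout fat, as had 10 of 16 general macrophage genes and 2 of 10 resident ones. Hmox1 stood at -4.54 ± 0.82, Nceh1 at -2.47 ± 0.54, Ctsk at -2.45 ± 0.51 and Tyrobp at -2.08 ± 0.41.

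**Figure D3:**
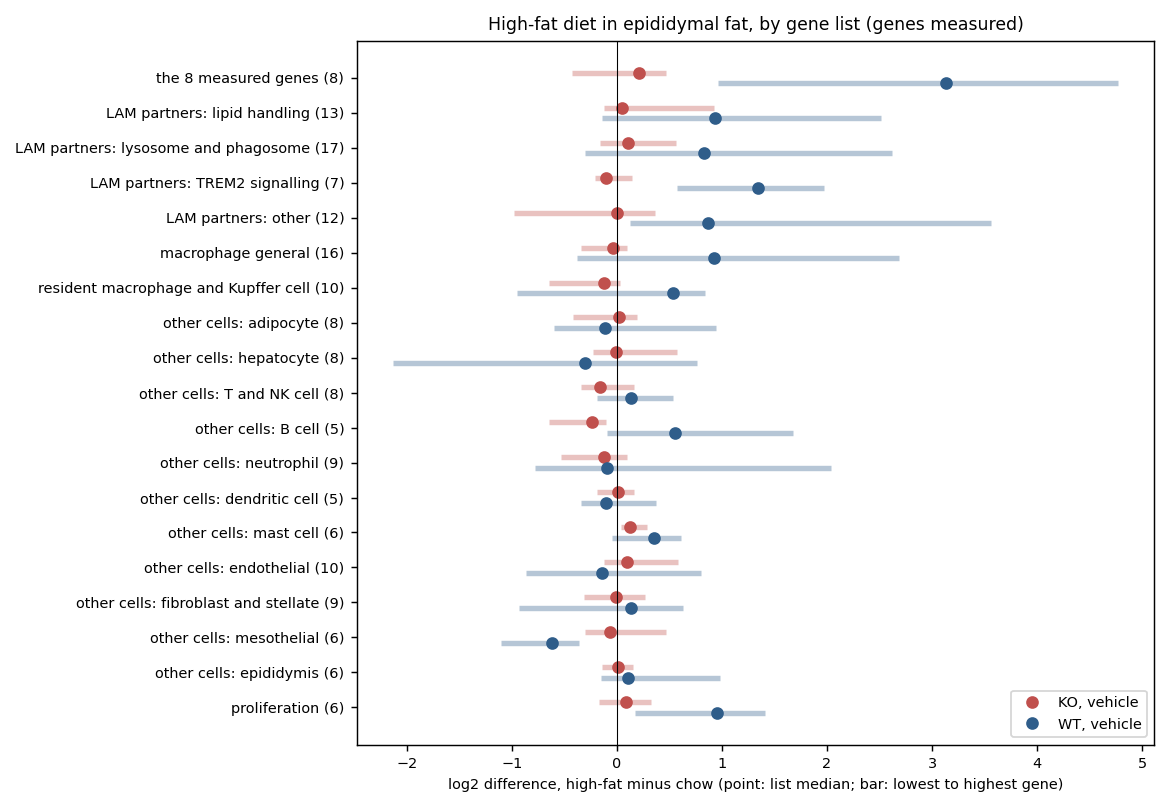
Median (point) and lowest to highest value (bar) of the log2 difference of high-fat over chow in vehicle fat for each gene list, in knockout and in wild-type mice. The members' median is 0.21 in knockout fat and 3.13 in wild-type fat, the widest gap of the lists shown.

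Set against wild type on high-fat diet, knockout fat had lower levels of every measured gene. Under vehicle all 8 fell, with no overlap between knockout and wild-type arrays (median -3.28), beside 8.7% of all genes that fell and 11.3% that were lower without overlap. This comparison shares its high-fat wild-type arrays with the diet comparison above. The difference was -4.93 ± 0.63 for Atp6v0d2, which was 30.5-fold lower (limma, adjusted p = 1.05e-05), -4.49 ± 0.60 for Mmp12 and -3.92 ± 0.54 for Trem2. Itgax fell by 3.31, Lgals3 by 3.26, Cd9 by 1.52, Aif1 by 1.34 and Gpnmb by 1.10 (limma, highest adjusted p = 0.000792). Lgals3 measured 5.93, 5.66 and 5.71 in high-fat knockout vehicle fat, each below the lowest high-fat wild-type vehicle array at 7.56. Aif1 measured 6.86, 6.52 and 6.91 in high-fat knockout vehicle fat, against a lowest wild-type value of 7.72.

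The partner lists fell too. In high-fat knockout against wild-type vehicle fat, 7 of 7 TREM2 signalling genes fell (median -1.43), Tyrobp by 2.12, Clec7a by 2.11, Ms4a7 by 1.95 and Plcg2, a phospholipase, by 0.90. Of lipid handling 8 of 13 fell, among them Nceh1 (-2.65), Lipa (-1.73), the scavenger receptor Msr1 (-1.33) and the lipid droplet coat Plin2 (-1.26). Of lysosome and phagosome 10 of 17 fell, led by Ctsk (-2.57). Of general macrophage genes 13 of 16 fell (median -0.97), and of resident ones 4 of 10 (median -0.49). The general macrophage genes summed to 16026 to 16531 in high-fat knockout vehicle fat and 24931 to 53456 in high-fat wild-type vehicle fat, and the mesothelial genes, 5 of 6 of them higher, to 4288 to 5041 in the knockout arrays and 2274 to 3987 in the wild-type arrays. The genes of the hepatocyte list, again mainly others than Alb, summed to 14301 to 18437 in the knockout arrays and 3940 to 7653 in the wild-type arrays. The part of the cells behind these lists in the members' difference was not tested.

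Under AM251 all 8 genes were again lower in high-fat knockout than in high-fat wild-type fat (median -2.33), beside 6.99% of all genes. Atp6v0d2 differed by -3.98 ± 0.55 (limma, adjusted p = 1.64e-05), Mmp12 by -3.30, Trem2 by -2.85, Lgals3 by -2.43, Itgax by -2.23, Cd9 by -1.31, Gpnmb by -0.71 and Aif1 by -0.56 ± 0.17 (limma, adjusted p = 0.0198). The knockout and wild-type arrays overlapped for all 8 genes, and 2.67% of all genes were lower without overlap. Without array 45 all 8 were still lower, 7 of the 8 (all but Aif1) did not overlap, and the difference was -4.61 for Atp6v0d2, -3.94 for Mmp12 and -3.28 for Trem2. Array 45 was singled out by its high member values, so leaving it out lowers the knockout values by itself. The results without it are a description only, and the share of 2.67% includes it. Gpnmb and Aif1 did not hold when some single arrays were left out: the count was 6 to 8 over such fits.

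Array 45 of the high-fat knockout AM251 group is described by its values. Trem2 measured 9.0 in it and 6.73 to 6.93 in the other 4 arrays of its group, Mmp12 10.36 and 6.84 to 7.55, and Atp6v0d2 7.37 and 3.89 to 4.47. It was the highest of its 5 arrays for 7 of the 8 members (87.5%), against 23.8% of all genes, and its median difference from the mean of the others was 1.71 over the members and -0.01 over all genes. Array 45 was singled out by these members' values, so its share among them is a description only. It was also highest for 7 of 7 TREM2 signalling genes, 13 of 17 lysosome genes, 10 of 16 general macrophage genes and 8 of 10 endothelial genes, with median differences of 0.37, 0.40, 0.32 and 0.38, and for 3 of 8 adipocyte genes. Their part in the members' values was not tested.

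**Figure D4:**
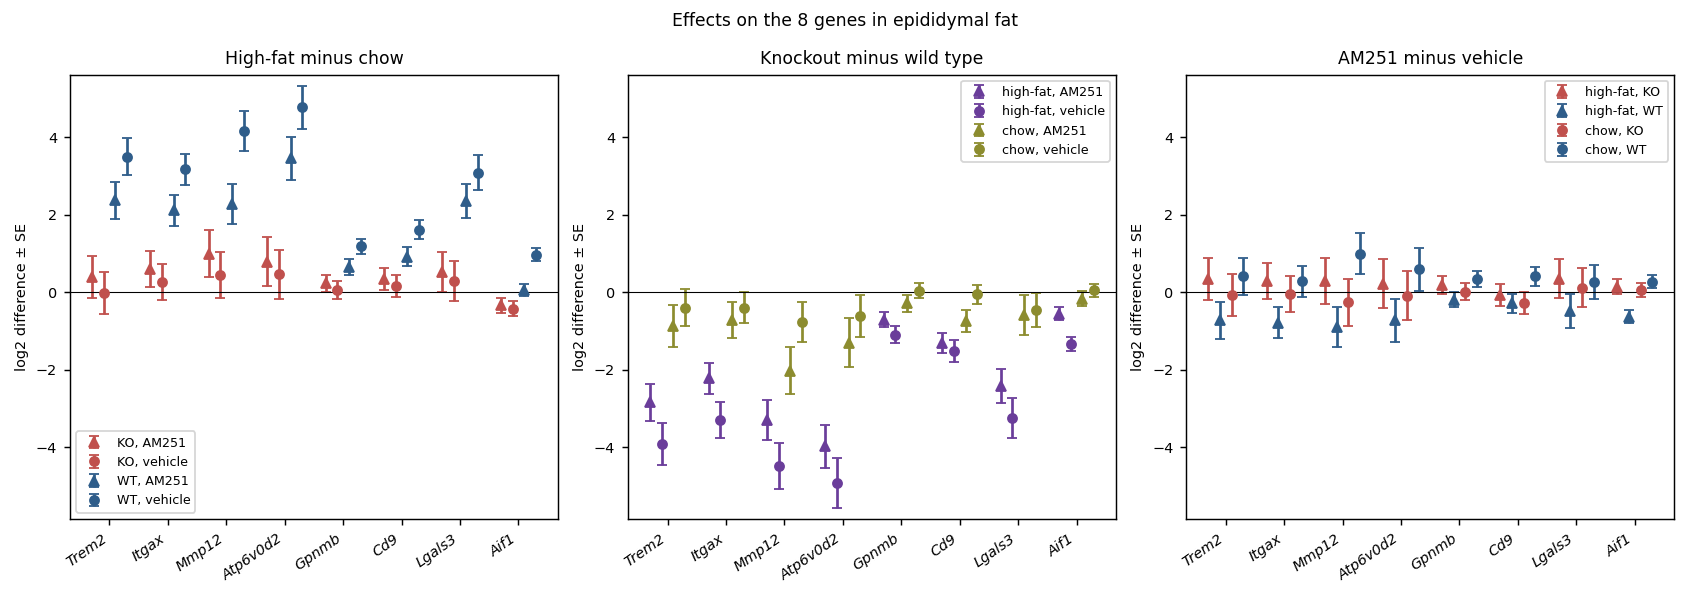
Log2 difference ± SE of the 8 genes in epididymal fat: high-fat minus chow, knockout minus wild type and AM251 minus vehicle, 1 panel each with 4 groups per gene. High-fat minus chow in wild-type vehicle fat runs from 0.97 to 4.77, and AM251 minus vehicle stays between -0.90 and 0.99.

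On chow no member passed between the genotypes. Under vehicle 0 of the 8 genes passed (limma, also 0 before adjustment, median -0.40), beside 0.0575% of all genes. Under AM251 0 of the 8 passed, and 3 did so before adjustment, beside 3.39% of all genes. Mmp12 was nearest. It measured 7.38, 6.26 and 6.92 in chow knockout AM251 fat and 9.19, 9.74, 8.63, 8.70 and 8.14 in chow wild-type AM251 fat, a difference of -2.03 ± 0.60 (limma, adjusted p = 0.0531). The arrays did not overlap for Trem2, Mmp12, Atp6v0d2 and Cd9, 4 of the 8 genes, while 6.94% of all genes were lower without overlap.

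In mice given AM251 the diet difference in wild-type fat passed for 7 of the 8 genes (median 2.19), beside 4.76% of all genes. Atp6v0d2 measured 9.30, 10.49, 7.71, 9.72 and 6.99 in high-fat wild-type AM251 fat and 6.00, 6.12, 4.89, 5.39 and 4.54 in chow wild-type AM251 fat, with no overlap and a difference of 3.45 ± 0.55 (limma, adjusted p = 0.000282). Trem2 differed by 2.37, Lgals3 by 2.35, Mmp12 by 2.27, Itgax by 2.11, Cd9 by 0.92 and Gpnmb by 0.65. Aif1 did not pass (0.05, limma adjusted p = 0.902). Gpnmb lost its call with array weights (limma, adjusted p = 0.0518) and Gpnmb and Cd9 with only the compared groups in the fit (adjusted p = 0.108 and 0.0614). Of the 8 genes 5 had no overlap, beside 2.52% of all genes. Apart from Atp6v0d2 the gaps between the lowest high-fat and the highest chow array were narrow. They were 7.08 against 7.07 for Lgals3, 8.45 against 8.40 for Itgax, 8.50 against 8.40 for Trem2 and 9.93 against 9.74 for Mmp12. Among the partner genes 8 of 13, 8 of 17, 3 of 7 and 8 of 12 rose in the lipid, lysosome, TREM2 signalling and further lists, with 6 of 16 general macrophage genes and 0 of 10 resident ones. In knockout mice given AM251 0 of the 8 passed (limma, 0 before adjustment, median 0.46, largest Mmp12 at 0.99 ± 0.60), beside 0.81% of all genes. Without array 45 also 0 of the 8 passed, with differences from -0.34 for Aif1 to 0.36 for Mmp12. Only Aif1 had no overlap between the diets there, lower on high-fat diet, beside 5.32% of all genes lower without overlap. The knockout minus wild-type difference of the diet effect under AM251 was past the threshold for 0 of 8 genes (median -1.39; 4 passed before adjustment), beside 0.0627% of all genes called in that direction. Atp6v0d2 stood at -2.67 ± 0.84 (limma, adjusted p = 0.163), and at -3.30 (adjusted p = 0.0255) without array 45. As that array was singled out by high member values, the value without it is a description only.

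AM251, given for 2 days, was set against vehicle within each diet and genotype. In high-fat wild-type fat 1 of the 8 genes fell, Aif1, beside 0.632% of all genes. Aif1 measured 7.59, 7.75, 7.67, 7.53 and 6.78 in high-fat wild-type AM251 fat and 8.33, 7.90, 8.16, 8.40 and 7.72 in high-fat wild-type vehicle fat. Of the 5 AM251 arrays, 4 lay below every vehicle array, and the difference was -0.64 ± 0.17 (limma, adjusted p = 0.0493). That call was lost under 4 alternatives and in 7 of 10 fits that each left out 1 array (adjusted p from 0.0194 to 0.268 over the 10). The other 7 genes had negative differences too, from -0.20 for Gpnmb to -0.90 ± 0.52 for Mmp12, and none passed. The 95% interval for Mmp12 ran from -1.96 to 0.17 and that for Trem2 from -1.69 to 0.23, so these arrays do not show that the levels were alike.

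In high-fat knockout fat 0 of the 8 genes passed in AM251 against vehicle, also before adjustment, and 0% of all genes passed. For 4 genes the sign turned without array 45: Trem2 stood at 0.34, Itgax at 0.29, Mmp12 at 0.28 and Atp6v0d2 at 0.22 with it, and without it Trem2 stood at -0.09, Itgax at -0.08, Mmp12 at -0.35 and Atp6v0d2 at -0.41, with 0 of the 8 past the threshold either way. In chow wild-type fat the differences were all positive, from 0.25 for Lgals3 to 0.99 ± 0.52 for Mmp12 (95% interval -0.07 to 2.06), with 0 of the 8 past the threshold, 0 before adjustment and 0% of all genes. In chow knockout fat 0 of 8 passed, 0 before adjustment, beside 0.0157% of all genes. The opposite signs in wild-type fat on the 2 diets were tested as a difference of effects, high-fat minus chow, and 0 of the 8 passed (2 before adjustment): Aif1 stood at -0.91 ± 0.24 (limma, adjusted p = 0.245) and Mmp12 at -1.89 ± 0.74 (adjusted p = 0.386), beside 0% of all genes. The knockout minus wild-type difference of the AM251 effect on high-fat diet was 0.78 ± 0.25 for Aif1 (limma, adjusted p = 0.179, and 0.187 without array 45). For that difference 0 of 8 passed (1 before adjustment), beside 0.407% of all genes after adjustment. Before adjustment 2070 of all genes passed for it, and 2001 for the high-fat minus chow difference.

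Over all 8 fat groups, each member was highest on average in high-fat wild-type vehicle fat and next in high-fat wild-type AM251 fat. For Trem2 the means were 10.84 ± 1.10 and 10.11 ± 1.26 in those 2 groups (SD, n = 5 each). The other 6 groups lay between 6.87 and 7.74, with chow wild-type AM251 fat at 7.74 ± 0.44 and chow wild-type vehicle fat at 7.34 ± 0.61, and neighbouring groups in this order differed by less than their spread apart from the step between high-fat wild-type AM251 and chow wild-type AM251 fat. The other 7 genes had the same 3 groups on top. Aif1 differed in its low end, with high-fat knockout vehicle fat lowest at 6.76 ± 0.21 (n = 3) and chow wild-type vehicle fat at 7.14 ± 0.29 (n = 5). Averaged over genotype and treatment, diet raised 7 of the 8 genes in fat (all but Aif1, at 0.06), beside 11% of all genes. CB1 loss averaged over diet and treatment lowered all 8, beside 10.9%. These averages mix unlike groups: 0 of 8 were called for diet in knockout fat and 0 of 8 for CB1 loss on chow, under vehicle or AM251.

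The 8 genes outside the set whose pattern over the 36 fat arrays was most like the members' mean were Tyrobp (r = 0.992), Arl11 (0.990), Lpxn (0.988), Ctsk (0.988), Nceh1 (0.987), Cd300lb (0.986), Myo1f (0.985) and Blnk (0.985). With each group's mean taken off, their r lay between 0.949 and 0.970 with array 45 and between 0.946 and 0.970 without it. The points are arrays and share their tissue and normalization.

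In liver few calls were made for the same genes. On high-fat diet in wild-type vehicle liver 1 of the 8 genes rose, Itgax, beside 1.11% of all genes. It measured 5.37, 6.60, 5.41, 5.16 and 5.31 in high-fat wild-type vehicle liver and 5.01, 4.90, 5.14, 4.86 and 4.77 in chow wild-type vehicle liver, without overlap, a difference of 0.63 ± 0.17 (limma, adjusted p = 0.0434). Without the array at 6.60 the difference was 0.38 (adjusted p = 0.211), and the call was lost in 7 of 10 fits that each left out 1 array. Mmp12 measured 5.54, 7.73, 5.68, 5.19 and 5.62 on high-fat diet and 4.90, 5.09, 5.01, 5.18 and 4.97 on chow, also without overlap, but did not pass (0.92 ± 0.33, limma adjusted p = 0.174). Itgax and Mmp12 were 2 of 8 genes without overlap, beside 1.67% of all genes. Before adjustment 4 of the 8 passed. Array 2, which gave the 6.60 and the 7.73, was highest of the 5 for 6 of the 8 members, 13 of 16 general macrophage genes and 9 of 9 fibroblast genes, against 19.8% of all genes. That array was singled out by member values, so its share among the members is a description only.

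**Figure D5:**
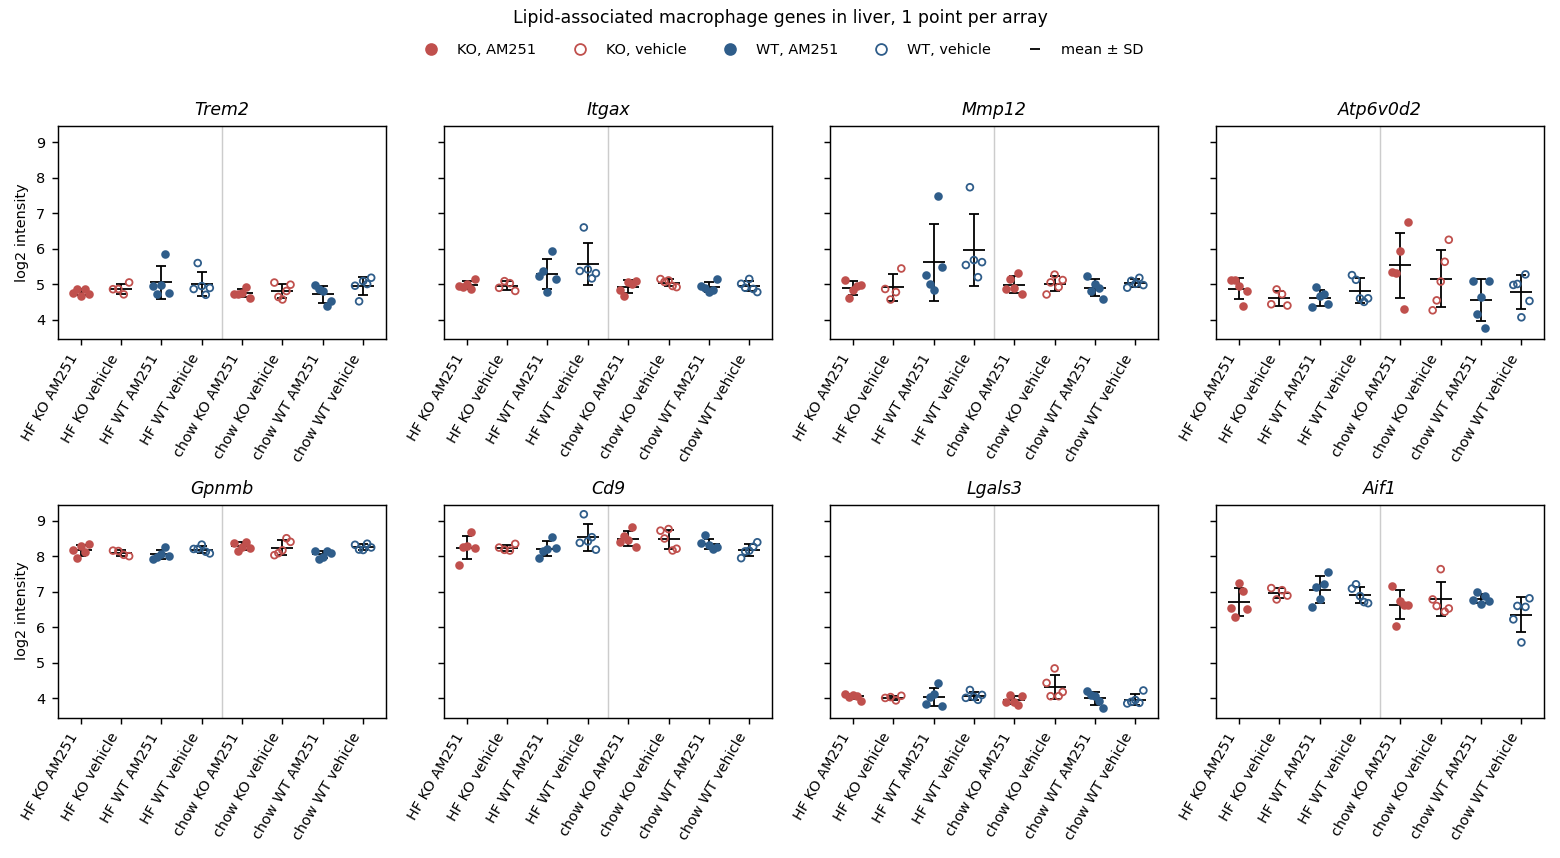
Log2 intensity of the 8 measured genes in liver, 1 panel per gene, 1 point per array, with bars for the mean ± SD of each of the 8 groups. Most groups overlap, and 1 array of each high-fat wild-type group lies above the others for Mmp12 and Trem2.

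The partner genes in wild-type vehicle liver rose in 3 of 13 cases for lipid handling, among them the fatty acid transporter Cd36 (1.44 ± 0.32) and the lipid carrier Fabp4 (0.92 ± 0.24), 3 of 17 for lysosome and phagosome, among them Cd63 (1.22 ± 0.30), and 1 of 7 for TREM2 signalling, Clec7a (1.17 ± 0.25). Of general macrophage genes 3 of 16 rose, the chemokine receptor Cx3cr1 (0.74 ± 0.16), Ptprc and Mpeg1. In knockout vehicle liver diet moved 0 members past the threshold (limma, 1 before adjustment), beside 17% of all genes. Under AM251 it moved 0 in wild-type liver (3 before adjustment), beside 1.96% of all genes, and 0 in knockout liver (1 before adjustment), beside 2.64%. Averaged over the 4 pairs of liver groups, Itgax was the 1 gene that passed (0.24 ± 0.09, limma adjusted p = 0.0447), beside 9.71% of all genes. That count changed to 0 or 2 in 20 of 39 fits that each left out 1 array. With 16 added to the intensity Itgax lost its call (0.17, limma adjusted p = 0.0618). CB1 loss moved 0 of 8 in high-fat vehicle liver (2 before adjustment), beside 1.19% of all genes, with Itgax at -0.62 ± 0.18 (limma, adjusted p = 0.0902) and Mmp12 at -1.04 ± 0.35 (adjusted p = 0.165). It also moved 0 of 8 in high-fat AM251 liver (1 before adjustment, 2.3% of all genes), in chow vehicle liver (2 before adjustment, 6.77% of all genes) and in chow AM251 liver (2 before adjustment, 0.324% of all genes). These shares too are after adjustment. Before it, CB1 loss passed for 2341 genes in high-fat vehicle, 2147 in high-fat AM251, 4011 in chow vehicle and 2604 in chow AM251 liver. In chow vehicle liver Lgals3 stood at 0.35 (limma, adjusted p = 0.0556). The shares of 6.77% and 17% depended on the fit. With only the compared groups in it, 3 genes in place of 1297 passed for CB1 loss in chow vehicle liver. For diet in knockout vehicle liver 823 passed in place of 3252.

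AM251 moved 0 of the 8 genes in any liver group. The counts before adjustment were 1 in high-fat wild-type liver, 0 in high-fat knockout liver, 2 in chow wild-type liver and 1 in chow knockout liver, and 1.91%, 0.0104%, 0% and 0.125% of all genes passed in these comparisons. Nearest to the threshold was Lgals3 in chow knockout liver (-0.37 ± 0.12, limma adjusted p = 0.155). The diet effect under vehicle in knockout minus wild-type liver was past the threshold for 0 of 8 (4 before adjustment), beside 4.17% of all genes, with Itgax at -0.71 ± 0.25 (limma, adjusted p = 0.0943).

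Over the 39 liver arrays, with group means taken off, r with the mean of the other members was 0.767 for Mmp12, 0.624 for Itgax and 0.609 for Trem2. It was 0.461 for Cd9, 0.438 for Lgals3, 0.301 for Aif1, 0.195 for Gpnmb and 0.0205 for Atp6v0d2. Array 2 of high-fat wild-type vehicle liver (Mmp12 7.73, Trem2 5.59) and array 38 of high-fat wild-type AM251 liver (7.49 and 5.85) are included. The r in this paragraph were not recomputed without these arrays. The 8 genes most like the members' mean were Cbr3 (r = 0.808), Tnc (0.807), Timp1 (0.779), Tpm1 (0.777), Clec7a (0.776), Crip1 (0.774), Pkm (0.761) and Rgs10 (0.749). Of these, Tnc and Timp1 encode an extracellular matrix protein and a matrix protease inhibitor, and 0 of the 8 were among those found in fat.

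Fat and liver were set side by side in wild-type vehicle mice. Whether the authors normalized the tissues together is not given in the sources used here, and over all genes fat read higher than liver by a median of 0.56 on high-fat diet and 0.50 on chow, so members are read against that shift. On high-fat diet all 8 were higher in fat (median 4.86), beside 71.4% of all genes, from 6.09 ± 0.45 for Mmp12 and 5.84 ± 0.35 for Trem2 to 1.23 for Gpnmb and 1.19 for Aif1. With quantile normalization Aif1 lost its call (0.27, limma adjusted p = 0.217), which left 7. The 5 Gpnmb probe sets ranged from 1.23 to 8.01, so the value for that gene depends on the probe set read. On chow 6 of the 8 were higher (median 1.76), beside 67%, with Mmp12 at 2.86, Itgax at 2.51 and Trem2 at 2.39. Atp6v0d2 (0.03) and Gpnmb (-0.02) did not pass. Aif1, at 0.78, was at -0.19 with quantile normalization and 0.08 with median centring, neither of them a call. Gpnmb depended on the setting: it was called lower in fat at -0.94 with quantile normalization and -0.73 with median centring, and higher at 1.58 with the mean of its probe sets. Of its 5 probe sets on chow, 3 were called higher in fat, at 3.79, 1.70 and 2.18. Of all calls on high-fat diet 86.2% were higher in fat, against 47.7% with quantile normalization and 41.4% with arrays centred on their median; on chow these were 84.3%, 45.6% and 39.7%.

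The diet effect itself, in which such a shift between tissues cancels, was larger in fat than in liver for 7 of the 8 genes (median 2.76, 0.04 over all genes), beside 6.85% of all genes. The difference of effects was 4.72 for Atp6v0d2, 3.45 for Trem2, 3.24 for Mmp12, 2.98 for Lgals3, 2.54 for Itgax, 1.25 for Gpnmb and 1.25 for Cd9. Aif1 did not pass (0.41 ± 0.28, limma adjusted p = 0.367).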

How the data were processed

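The deposited values are intensities per probe set, 38385 on each of 75 one-colour arrays of a custom mouse design. Per the submitters' processing notes the authors made them with RMA, which corrects background, normalizes between arrays and summarises probes; its version, and whether fat and liver arrays were normalized together, are not given in the sources used here. The number of arrays, 3 to 5 a group, limits the precision. Array medians of the intensity ran from 44.3 to 48.0 in fat and from 25.8 to 28.7 in liver, and 0 columns were identical. Correlations within a tissue were averaged per array over all its pairings. These averages ran from 0.977 to 0.990 in fat and from 0.963 to 0.991 in liver. Single pairs may lie outside these ranges.

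Intensities were put on a log2 scale. A probe table from the platform's annotation gave 1 symbol to 24478 probe sets, several to 65 and listed none for 13842, and each of 19147 genes was read from its brightest probe set in that tissue. The 8 members had 14 probe sets. limma 3.58.1 in R 4.3.3 fitted 1 mean per group over the 8 groups of a tissue (16 for fat against liver), with two-sided tests and Benjamini-Hochberg adjustment over all genes at 0.05. The fit was tested on simulated data. Python 3.11.15 with pandas 2.3.3, numpy 2.4.6 and matplotlib 3.10.9 made the summaries and plots. Members, gene lists and motifs were chosen with earlier results of these data known. Named from the lists are up to 4 genes with the smallest p past the threshold, plus the 8 genes most correlated with the members' mean in each tissue; Adipoq, Alb and Cnr1 are named as checks, and Cyp2e1 and S100a8 after their values were seen. Alternatives were quantile normalization, median centring, the mean of all probe sets, leaving out the lowest 25% of genes, adding 16 to the intensity, array weights, only the compared groups, leaving out each array, and, chosen after seeing the data, each probe set on its own; the knockout minus wild-type diet effect under AM251 was also added then. Whether sample numbers shared by titles mark the same animal is not known here. Over 30 fat and liver pairs of the same number, the correlations of deviations ran from -0.12 to 0.20. That check cannot decide it, because fat and liver of the same animal need not deviate alike.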

Additional observations from a re-analysis of the deposited data

Results flagged for a closer look

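Of 112 sets of 4 or 5 arrays, 1 per gene and group, 16 had a highest or lowest array far from the others by Dixon's criterion, where chance gives about 1 in 20. Several members move together, so these sets are not independent. Of these, 5 were array 45 of high-fat knockout AM251 fat: Trem2 at 9.0 against a mean of 6.83 in the other arrays of its group, and, with that mean in brackets here and after, Itgax at 9.08 (7.24), Mmp12 at 10.36 (7.21), Atp6v0d2 at 7.37 (4.23) and Lgals3 at 7.37 (5.80). In the same group Aif1 was low in array 49, at 6.65 (6.97). In high-fat wild-type AM251 fat Aif1 was low in array 37, at 6.78 (7.63). Cd9 was low in 1 chow wild-type vehicle fat array, at 9.07 (9.86), and Gpnmb in 1 chow knockout vehicle fat array, at 8.0 (8.34).

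In liver, array 2 of high-fat wild-type vehicle liver was high for Itgax, at 6.60 (5.31), Mmp12, at 7.73 (5.51), and Trem2, at 5.59 (4.85). Array 38 of high-fat wild-type AM251 liver was high for Mmp12, at 7.49 (5.14), and Trem2, at 5.85 (4.85). Array 38 was the highest of its 5 for 6 of the 8 members, 12 of 16 general macrophage genes and 7 of 9 fibroblast genes, against 21.7% of all genes. It too was singled out by member values, so its share among the members is a description only. Aif1 was high in 1 chow knockout vehicle liver array, at 7.63 (6.58), and Lgals3 in 1 chow wild-type vehicle liver array, at 4.21 (3.89).

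The diet effect in vehicle fat differed between knockout and wild-type mice by the test of that difference for all 8 genes: Trem2 -3.51, Itgax -2.90, Mmp12 -3.71, Atp6v0d2 -4.31, Gpnmb -1.13, Cd9 -1.46, Lgals3 -2.80 and Aif1 -1.39. The diet effect in wild-type vehicle mice differed between fat and liver for 7: Trem2 3.45, Itgax 2.54, Mmp12 3.24, Atp6v0d2 4.72, Gpnmb 1.25, Cd9 1.25 and Lgals3 2.98.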

How the results depend on the processing

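Over the alternatives and the fits without 1 array, 969 counts of members past the threshold were recomputed; 908 stayed within 1.5 times and 61 did not. The counts of 8 for diet in wild-type vehicle fat, CB1 loss in high-fat vehicle fat and the genotype difference of the diet effect held under every alternative and without any single array. Of 7424 values of single genes, 55 lost and 20 gained their call, and 2 turned sign where either fit made a call: Aif1 in fat against liver on chow, to -0.19 with quantile normalization, and Gpnmb there, to 1.58 when its probe sets were averaged. For diet in wild-type AM251 fat Gpnmb lost its call with array weights, and Gpnmb and Cd9 with only the compared groups; for fat against liver on high-fat diet Aif1 lost its call with quantile normalization. The causes were not tested.

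The count for AM251 in high-fat wild-type fat was 0 in place of 1 with quantile normalization, the mean of all probe sets, only the compared groups, and each probe set alone. CB1 loss in chow AM251 fat gave 1 with quantile normalization, the lowest 25% left out or array weights, and 2 with only the compared groups, in place of 0. The genotype difference of the diet effect under AM251 in fat gave 1 with array weights. In liver, diet in wild-type vehicle mice gave 0 in place of 1 with 16 added, only the compared groups, or each probe set alone; diet averaged over the groups gave 2 with quantile normalization, array weights or each probe set alone and 0 with 16 added, in place of 1; and 1 in place of 0 came from CB1 loss in chow vehicle liver without the lowest 25%, CB1 loss in high-fat vehicle liver with array weights, and diet in knockout vehicle liver by each probe set. 

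Without single arrays, counts ran from 6 to 8 for CB1 loss in high-fat AM251 fat, 5 to 7 for diet in wild-type AM251 fat, and 0 to 2 for diet averaged in liver. They ran from 0 to 1 for AM251 in high-fat wild-type fat, the genotype difference of the diet effect under AM251 in fat, diet in wild-type or knockout vehicle liver, and CB1 loss in chow vehicle liver. Other counts kept 1 value.

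The counts of all genes past the threshold, which give the background shares, moved more. With only the compared groups they were 845 in place of 1828 for diet in wild-type AM251 fat, 20 in place of 213 for AM251 in high-fat wild-type fat, 428 in place of 650 for CB1 loss in chow AM251 fat and 163 in place of 323 for diet in wild-type vehicle liver. For CB1 loss in chow vehicle liver that setting gave 3 in place of 1297, and array weights gave 276. For diet in knockout vehicle liver the compared groups alone gave 823 in place of 3252. With array weights they were 1870 in place of 1213 for the genotype difference of the diet effect in vehicle fat, 62 in place of 1 for diet in knockout vehicle fat and 498 in place of 155 for diet in knockout AM251 fat.

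With the sample number as a replicate block and only the compared groups in the fit, diet in wild-type vehicle fat gave 8 (2145 of all genes, in place of 4689). Diet in wild-type vehicle liver gave 0 in that fit. It changes the groups as well as adding the block, so the change is not that of the block alone. With the block and all groups, fat against liver gave 8 on high-fat diet, 6 on chow and 7 for the diet effect, with a correlation within blocks of 0.0387.

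No probe's distance from background is in the deposited values, so how far low readings can be trusted is not known here. Groups of 3 to 5 arrays limit every comparison, and a missed threshold does not show equal levels.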
